A study of Mus musculus with 2 samples.

Results

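The stretch-responsive and Z-disc proteins followed here are encoded by 10 genes: Ankrd1, Ankrd23, Xirp1, Xirp2, Csrp3, Tcap, Flnc, Cryab, Fhl1 and Actn2. They were taken by symbol from the 32589 gene identifiers of the count files, and each of the 10 symbols was found. The data are molecule counts of single cells from mouse left ventricle, each molecule being tagged by a unique molecular identifier (UMI). One library is labelled p53 knockout (KO-labelled below) and the other wild-type (WT-labelled below). Both come from mice with transverse aortic constriction (TAC), in which the aorta is surgically narrowed so that the ventricle works against a raised pressure. Each library pooled 3 hypertrophied hearts of its genotype, collected 6 weeks after surgery. The labels give no strain, sex or age, and neither the p53 allele nor the tissue of its deletion. All hearts carried TAC, so no unloaded heart is among the groups. With 1 library per group the spread between animals cannot be measured and no test was possible: every interval below is a 95% interval that covers counting error only.

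The Z-disc borders each sarcomere, anchors actin filaments and the end of titin, and passes contractile force to its neighbours. In heart muscle it is also a place where stretch is sensed: some of its proteins shuttle between the Z-disc and the nucleus, and genes such as Ankrd1 are classical markers of the loaded, hypertrophied ventricle. Small heat shock proteins, filamin and the Xin proteins gather where Z-discs and intercalated discs are strained or damaged.

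Promoter windows of 300 bases, 250 before and 50 after a RefSeq start on GRCm38.p6, were available for 7 of the 10 genes, in 11 windows. The windows of Ankrd1, which had the largest ratio between the libraries, and of Xirp2, a known target of MEF2A, are shown. Both are printed 5′ to 3′ on the gene's strand. Capitals in the Ankrd1 window (chr19:36119795-36120094, minus strand) mark 2 matches to CATTCC, the MCAT motif bound by TEAD factors, here as its reverse complement GGAATG. Capitals in the Xirp2 window (chr2:67445752-67446051, plus strand) mark 1 match to the MEF2 site.
Ankrd1: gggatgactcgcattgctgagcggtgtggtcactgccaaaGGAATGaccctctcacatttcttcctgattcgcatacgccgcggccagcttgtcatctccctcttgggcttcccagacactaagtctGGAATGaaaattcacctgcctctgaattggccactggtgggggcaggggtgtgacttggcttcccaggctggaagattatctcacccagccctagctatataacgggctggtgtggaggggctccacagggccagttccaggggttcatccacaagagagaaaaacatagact
Xirp2: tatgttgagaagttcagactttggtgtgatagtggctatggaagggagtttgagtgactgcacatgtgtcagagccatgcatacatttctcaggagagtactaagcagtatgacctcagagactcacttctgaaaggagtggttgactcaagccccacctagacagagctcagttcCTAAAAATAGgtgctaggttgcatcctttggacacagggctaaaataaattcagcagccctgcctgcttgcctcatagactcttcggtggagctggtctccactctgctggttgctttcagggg
Searched on both strands, MCAT was in windows of 3 of the 7 genes (Ankrd1, Ankrd23 and Flnc) and in 14.7% of all 32841 RefSeq windows. The MEF2 site was in 1 of the 7 (Xirp2) and in 3.19% of all windows. The CArG box, bound by serum response factor, was in 1 of the 7 (Fhl1) and in 1.63% of all windows. The E-box CANNTG was in 6 of the 7 and in 72.3% of all windows, and some of its matches can overlap other motifs. The p53 half-site and the heat shock element core were in 0 of the 7 and in 8.36% and 8.52% of all windows. A gene was counted where any of its windows held a match, so genes with several windows had more chances. The shares over all windows are per window, and the units are therefore unlike. A match describes these letters only, and a window without one says nothing of the factor.

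Of 10118 barcodes with 20918824 UMIs in the KO-labelled library 9298 cells were kept, and of 16060 barcodes with 18897913 UMIs in the WT-labelled library 14763 cells. Cells were clustered on genes other than the 10 members, and clusters were called "X-like" from marker lists. Although the labels name cardiomyocytes as the cell type, cardiomyocyte-like cells made up 865 cells (9.30%) of the KO-labelled library and 4783 cells (32.4%) of the WT-labelled library. Trp53 itself was not lower in the KO-labelled library, at 55.0 CPM over all kept cells against 38.7 CPM in the WT-labelled library (CPM is the usual depth-scaled count, taken here over nuclear-encoded UMIs). In cardiomyocyte-like cells it had 27.0 and 27.4 CPM, with a log2 ratio of -0.010 (-0.46 to 0.41). The deleted exons are not given, so this level may check nothing, and every direction below is one between the labelled libraries. Xist was at 929 CPM in the KO-labelled library and 2.38 CPM in the WT-labelled library, while Ddx3y, a Y-linked gene, was at 0.918 and 159.8 CPM, so sex and genotype label cannot be told apart. The libraries shared 105 barcodes, of which 12 and 28 were among the cardiomyocyte-like cells.

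All 10 genes were higher in cardiomyocyte-like cells of the KO-labelled library than in those of the WT-labelled library, and no interval of a log2 ratio held 0. The class held different clusters in each library, and its cluster 9 was rich in mitochondrial RNA. In the sum of the cells outside cluster 9 the ratio turned round for 3 of the 10. It was -0.082 for Csrp3, -0.14 for Tcap and -0.65 for Cryab in that sum. Taken cluster by cluster, Tcap had a ratio above 0 in each, and Csrp3 in all but cluster 6. Over the whole class, of the 10, 7 were at least 2-fold higher and none was at least 2-fold lower. Among all 13656 genes with at least 20 UMIs in these cells, 4.4% were at least 2-fold higher, 15.5% at least 2-fold lower and 33.8% above 0. The median log2 ratio was 1.32 over the 10 genes and -0.25 over all 13656. The 10 cardiomyocyte markers used for naming, summed, were at 59290 CPM in the KO-labelled library and 61000 CPM in the WT-labelled library. Fibroblast markers summed to 1095 and 1407 CPM in the same cells. These UMI levels are not divided by transcript length, so levels are compared between libraries and cell classes, not between genes.

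**Figure D1:**
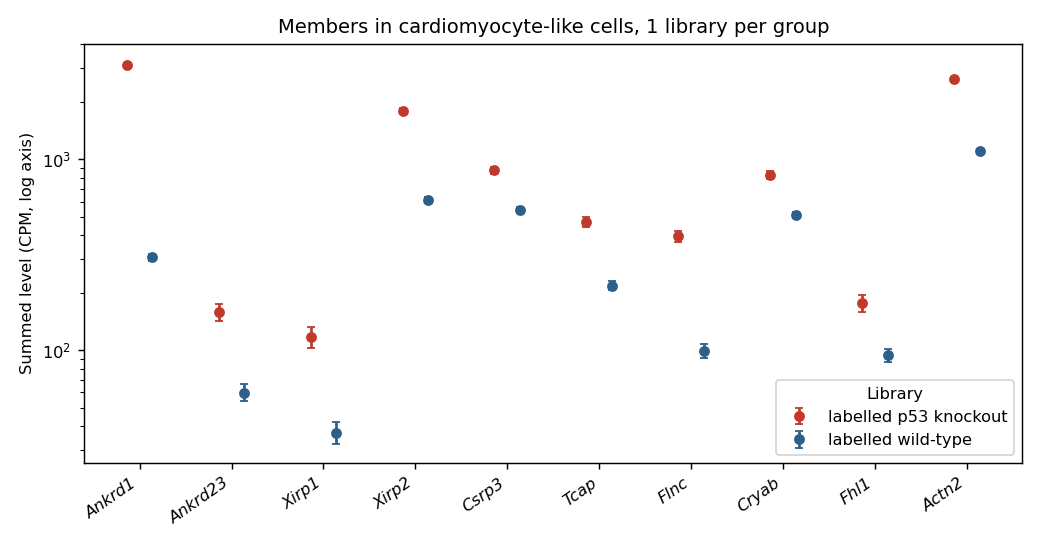
Summed levels of the 10 genes in cardiomyocyte-like cells (CPM of nuclear-encoded UMIs, log axis), with the KO-labelled library in red on the left of each pair and the WT-labelled library in blue on the right; bars are exact Poisson 95% intervals and cover counting error only. Each red point lies above its blue point, with the widest gap at Ankrd1 (3119 and 306 CPM).

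Ankrd1 and Ankrd23 encode ankyrin repeat proteins that bind titin in the I-band and are linked to stretch signalling; Ankrd1, also called CARP, acts as a transcriptional cofactor too. Ankrd1 (ENSMUSG00000024803; chromosome 19, 36111961 to 36120099, mm10) had 7041 UMIs or 3119 CPM in cardiomyocyte-like cells of the KO-labelled library and 1880 UMIs or 306 CPM in those of the WT-labelled library. That is 10.2-fold, a log2 ratio of 3.35 (3.28 to 3.42), the largest of the 10. Ankrd23 (ENSMUSG00000067653; chromosome 1, 36530188 to 36536883) had 356 UMIs or 158 CPM and 368 UMIs or 59.9 CPM, with a log2 ratio of 1.40 (1.18 to 1.61). Ankrd2, their kin in skeletal muscle, had 1 and 15 UMIs and was too sparse to compare. Of the pair, Ankrd1 thus carried the wider gap.

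Xirp1 and Xirp2 encode Xin actin-binding repeat proteins, which bind actin filaments and sit at intercalated discs and Z-disc attachment sites. Xirp1 (ENSMUSG00000079243; chromosome 9, 120013755 to 120023598) had 263 UMIs or 116.5 CPM in the KO-labelled library and 227 UMIs or 37.0 CPM in the WT-labelled library, a log2 ratio of 1.66 (1.40 to 1.92). Xirp2 (ENSMUSG00000027022; chromosome 2, 67446002 to 67526614) had 4061 UMIs or 1799 CPM and 3752 UMIs or 611 CPM, with a log2 ratio of 1.56 (1.49 to 1.62). Both Xin genes were thus about equally far above the WT-labelled level, and their intervals overlap. Xirp1 lies in the annotated span of Cx3cr1 on the same strand. Cx3cr1, a chemokine receptor of macrophages, was at 11.5 CPM in the KO-labelled library and 10.75 CPM in the WT-labelled library.

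Csrp3, Tcap and Fhl1 belong to the titin-linked signalling side of the Z-disc. Csrp3 encodes muscle LIM protein, Tcap encodes telethonin, which caps the end of titin, and Fhl1 encodes a protein made of LIM domains that binds titin in the I-band. Csrp3 (ENSMUSG00000030470; chromosome 7, 48830398 to 48848033) had 1971 UMIs or 873 CPM in the KO-labelled library and 3338 UMIs or 543.5 CPM in the WT-labelled library, a log2 ratio of 0.68 (0.60 to 0.76). Tcap (ENSMUSG00000007877; chromosome 11, 98383811 to 98384953) had 1061 UMIs or 470.0 CPM and 1334 UMIs or 217 CPM, with a log2 ratio of 1.11 (0.996 to 1.23). Fhl1 (ENSMUSG00000023092; chromosome X, 56731787 to 56793346) had 396 UMIs or 175 CPM and 577 UMIs or 93.95 CPM, with a log2 ratio of 0.90 (0.71 to 1.09). Csrp3 and Fhl1 stayed short of 2-fold. Under median-of-ratios scaling, which moved every ratio up by 0.14, Fhl1 passed it at 1.05.

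Flnc, Actn2 and Cryab stand for the actin crosslinkers of the Z-disc and their chaperone. Flnc encodes filamin C, an actin crosslinker of Z-discs and intercalated discs; Actn2 encodes the sarcomeric alpha-actinin that crosslinks actin at the Z-disc; Cryab encodes alpha-B-crystallin, a small heat shock protein that protects desmin, actin and titin. Flnc (ENSMUSG00000068699; chromosome 6, 29433256 to 29461883) had 891 UMIs or 395 CPM in the KO-labelled library and 608 UMIs or 99 CPM in the WT-labelled library, 3.99-fold higher, the second largest ratio of the 10. Actn2 (ENSMUSG00000052374; chromosome 13, 12269426 to 12340760) had 5932 UMIs or 2628 CPM and 6826 UMIs or 1111 CPM, with a log2 ratio of 1.24 (1.19 to 1.29). Cryab (ENSMUSG00000032060; chromosome 9, 50751325 to 50756636) had 1865 UMIs or 826 CPM and 3128 UMIs or 509 CPM, with a log2 ratio of 0.70 (0.61 to 0.78). The crosslinkers thus lay further above the WT-labelled level than the chaperone did. Cryab overlaps Hspb2 on the opposite strand, and Hspb2 had 26.6 and 21.2 CPM.

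The cardiomyocyte-like class was made of different clusters in each library. In the KO-labelled library, 405 of the 865 cells were in cluster 14, led by genes that include Myh7 and Nrap, and 312 (36.1%) in cluster 9, which was rich in mitochondrial RNA. In the WT-labelled library, 2414 of the 4783 cells were in cluster 2, 1597 in cluster 6, 757 (15.8%) in cluster 9 and 15 in cluster 14. The leading genes of cluster 9 include Nppa, Nppb, Acta1 and the member Ankrd1. Nppa was at 20820 CPM in cluster 9 of the KO-labelled library and 246 CPM in that of the WT-labelled library. The median mitochondrial share in cluster 9 was 19.1% in the KO-labelled library and 22.2% in the WT-labelled library. Malat1, a nuclear RNA, was at 11040 and 17760 CPM there, and between 52450 and 92240 CPM in the other 3 clusters. Haemoglobin and other erythroid markers were highest in cluster 9 too, at 11010 CPM in the KO-labelled library and 2311 CPM in the WT-labelled library. Their part in the results for cluster 9 was not tested.

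**Figure D2:**
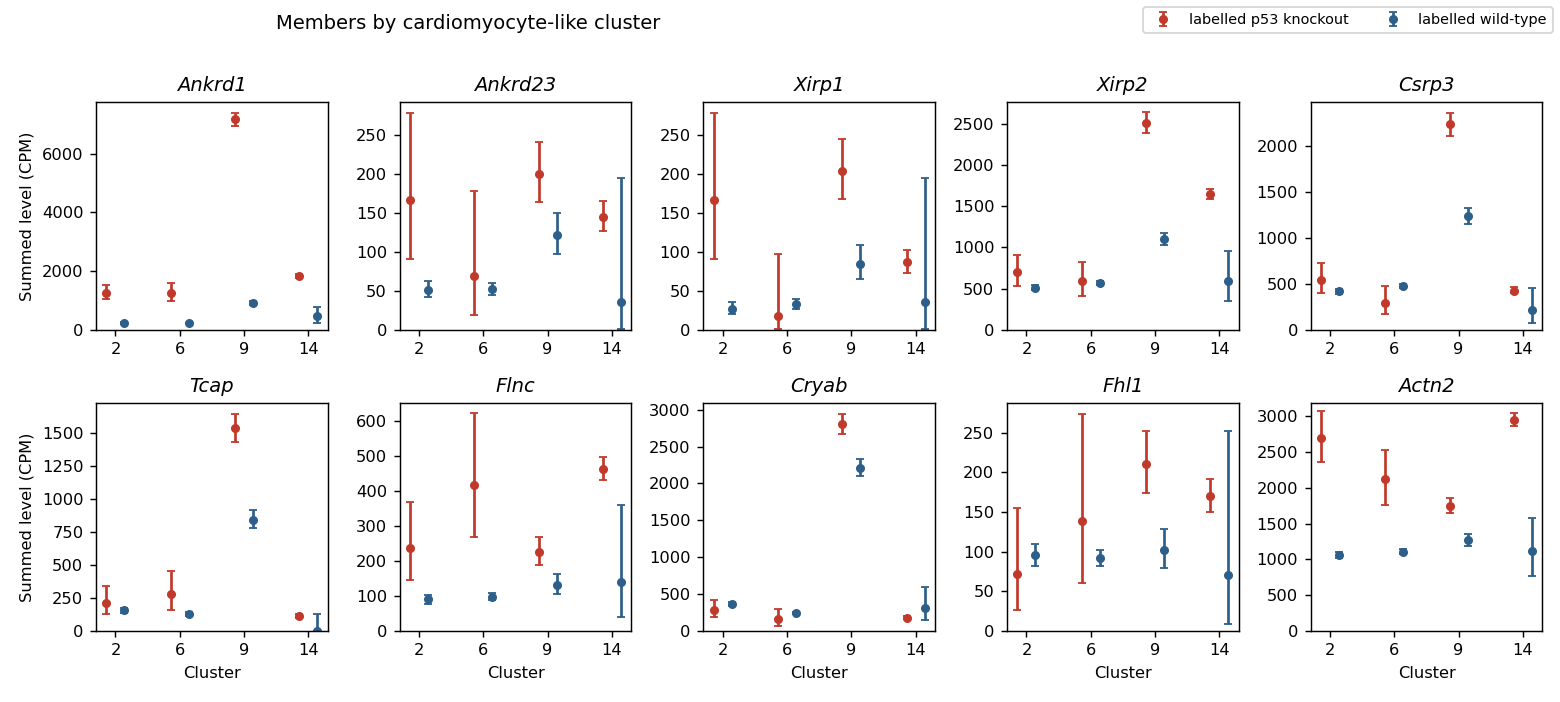
Summed levels of the 10 genes (CPM, linear axes from 0) in each cardiomyocyte-like cluster, with the KO-labelled library in red and the WT-labelled library in blue; bars are exact Poisson 95% intervals. Csrp3, Tcap and Cryab are high in cluster 9 of both libraries and low elsewhere, and Ankrd1 is highest there too. Actn2 and Flnc of the KO-labelled library are lower in cluster 9 than in cluster 14.

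Csrp3, Tcap and Cryab were concentrated in cluster 9. In the KO-labelled library this cluster held 63.0% of the class's Csrp3 UMIs, 80.2% of its Tcap UMIs and 83.3% of its Cryab UMIs, and in the WT-labelled library 26.2%, 44.7% and 50.1%. Cryab was at 2803 CPM in cluster 9 of the KO-labelled library and 2215 CPM in that of the WT-labelled library, against 156.5 to 285 CPM and 244 to 361.5 CPM in the other 3 clusters. Tcap was at 1535 and 842.5 CPM in cluster 9, and Csrp3 at 2240 and 1237 CPM.

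Summed over the cells outside cluster 9, none of Csrp3, Tcap and Cryab was higher in the KO-labelled library. The mix of clusters in that sum differs between the libraries. Over these 553 and 4026 cells, Csrp3 had 428 CPM in the KO-labelled library and 453 CPM in the WT-labelled library, a log2 ratio of -0.082 (-0.20 to 0.037). Tcap had 123 and 136 CPM, with a log2 ratio of -0.14 (-0.37 to 0.084). Cryab had 183 and 287 CPM, with a log2 ratio of -0.65 (-0.83 to -0.48). Cryab was therefore lower there beyond its counting interval, whereas Csrp3 and Tcap had intervals that hold 0. Among all 13132 genes counted in these cells, 28.1% were above 0, 3.32% at least 2-fold higher and 20.4% at least 2-fold lower, with a median of -0.35. Within cluster 9 itself, the log2 ratio was 0.86 (0.73 to 0.98) for Csrp3, 0.86 (0.71 to 1.02) for Tcap and 0.34 (0.24 to 0.44) for Cryab. Within cluster 14 it was 0.91 (-0.11 to 2.47) for Csrp3 and -0.90 (-1.77 to 0.32) for Cryab. For Tcap it was 2.69 there, with a lower bound of -0.21 and no upper bound, from 176 UMIs in the KO-labelled library and 0 in the WT-labelled library. Each of these cluster 14 intervals holds 0.

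The other 7 genes were higher with and without cluster 9, and 6 of the 10 remained at least 2-fold higher without it. Ankrd1 had 1797 CPM outside cluster 9 in the KO-labelled library and 227 CPM in the WT-labelled library, a log2 ratio of 2.99 (2.89 to 3.08). Flnc had 449.8 and 94.8 CPM, with a log2 ratio of 2.25 (2.08 to 2.41). Actn2 had 2914 and 1091 CPM, with a log2 ratio of 1.42 (1.36 to 1.47). For Flnc and Actn2 the ratio was larger outside the cluster than in it, where it was 0.78 (0.38 to 1.18) for Flnc and 0.46 (0.33 to 0.59) for Actn2. Ankrd23, Xirp1, Xirp2 and Fhl1 had ratios of 1.47, 1.52, 1.52 and 0.82 without cluster 9.

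**Figure D3:**
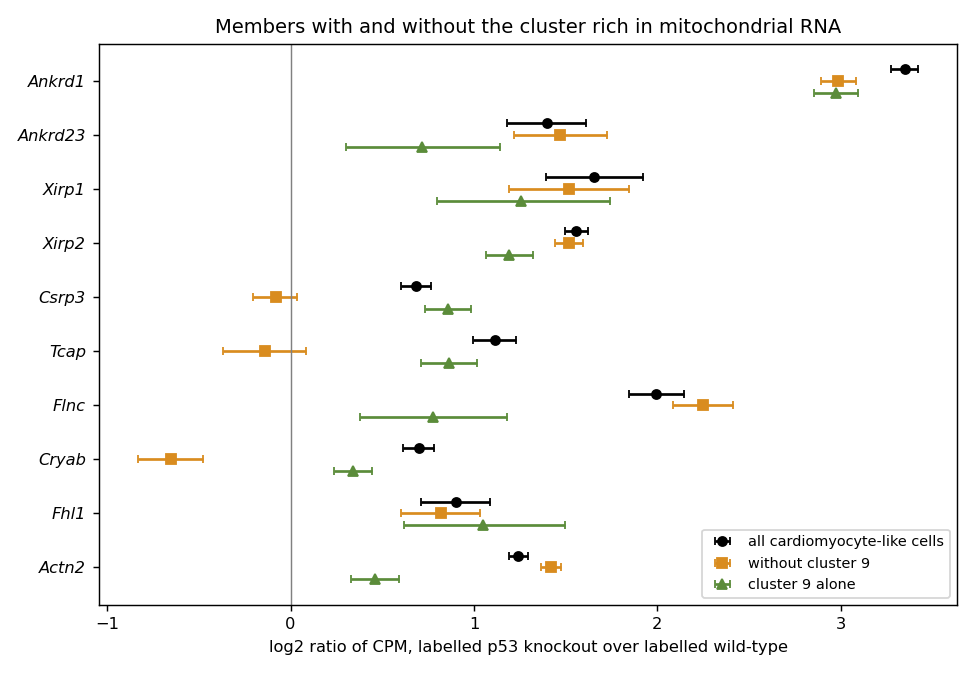
Log2 ratio of CPM, KO-labelled over WT-labelled library, for each gene in all cardiomyocyte-like cells (black circles), without cluster 9 (orange squares) and in cluster 9 alone (green triangles); bars are exact 95% intervals of counting error. Without cluster 9 the values of Csrp3, Tcap and Cryab lie at -0.082, -0.14 and -0.65, while the other 7 stay above 0.

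The clusters that both libraries filled with low mitochondrial shares were clusters 2 and 6, although they held only 114 and 34 cells of the KO-labelled library. Ankrd1 was higher in both, at 1258 CPM in the KO-labelled library and 224 CPM in the WT-labelled library in cluster 2, a log2 ratio of 2.50 (2.17 to 2.80). In cluster 6 it had 1252 and 227 CPM, with a log2 ratio of 2.47 (2.10 to 2.81). Flnc had ratios of 1.44 (0.66 to 2.08) and 2.13 (1.44 to 2.70), and Actn2 of 1.35 (1.14 to 1.55) and 0.94 (0.66 to 1.20). Ankrd1, Flnc and Actn2 were thus above 0 beyond counting error in each of the 2 clusters. Tcap had 0.51 (-0.30 to 1.15) in cluster 2 and 1.18 (0.32 to 1.86) in cluster 6, where it was at 278 CPM from 16 UMIs in the KO-labelled library and 126 CPM in the WT-labelled library, so it was higher there unlike in the sum outside cluster 9. Csrp3 had 0.40 (-0.073 to 0.82) in cluster 2 and -0.65 (-1.47 to -0.0043) in cluster 6, and Cryab -0.31 (-0.995 to 0.24) and -0.56 (-1.77 to 0.29). Xirp2 had 0.46 (0.047 to 0.83) in cluster 2 and 0.080 (-0.47 to 0.55) in cluster 6. Fhl1 had -0.31 (-1.89 to 0.73) and 0.69 (-0.62 to 1.60), from 6 and 8 UMIs in the KO-labelled library. Xirp2 and Fhl1 were thus not above 0 beyond counting error in both of these clusters. In the KO-labelled library cluster 14 held 63.4% of the class's Xirp2 UMIs and 66.9% of its Fhl1 UMIs. It also held 81.0% of the Flnc UMIs and 77.8% of the Actn2 UMIs, so such shares do not set Xirp2 and Fhl1 apart. As cluster 14 had 15 cells of the WT-labelled library, it may stand for the library rather than a cell type.

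Cells with at least 1 UMI of an atrial gene (Myl7, Sln, Bmp10 or Sbk2) made up 8.32% of cardiomyocyte-like cells in the KO-labelled library and 0.585% in the WT-labelled library. In the KO-labelled library they had 8253 CPM of Ankrd1, against 2629 CPM in its other cardiomyocyte-like cells. In the WT-labelled library the 28 such cells had 89.8 CPM, against 308 CPM in the others. They held only 0.213% of the 1880 Ankrd1 UMIs of that library's class, too few to give a direction. Leaving out the atrial-gene cells of both libraries moved the ratio of Ankrd1 to 3.09 (3.02 to 3.17), and the difference was thus nearly as large without them. The other 9 genes moved by less.

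Cardiomyocyte-like cells of the KO-labelled library were also deeper, with a median of 1759 UMIs against 991 in the WT-labelled library. Among cells of 500 to 1000 nuclear-encoded UMIs, Ankrd1 had a log2 ratio of 3.43, among those of 1000 to 2000 it had 3.70, and in deeper cells 3.44. All 10 genes were above 0 in each of the 3 depth ranges, although the interval of Fhl1 held 0 in the shallowest (0.48, -0.26 to 1.09). From shallow to deep, Csrp3 had 0.74, 1.48 and 0.39, Tcap 0.85, 2.06 and 1.23, and Cryab 0.65, 1.52 and 0.84, so these 3 moved with depth range more than Ankrd1 did. After thinning each cell to 500 UMIs, 51.5% of cardiomyocyte-like cells of the KO-labelled library (48.1 to 54.9) had an Ankrd1 UMI, against 11.1% in the WT-labelled library (10.2 to 12.1). Without thinning the shares were 70.6% and 18.3%. B-like cells were taken as cells that should lack these genes, with a limit for Cryab given below. They had medians of 1110.5 and 930.0 UMIs and thinned Ankrd1 shares of 5.96% (3.30 to 9.79) and 8.33% (3.42 to 16.4). The interval of the Ankrd1 share in the WT-labelled library thus overlapped that of its B-like cells, which rests on 7 of 84 cells. Its summed level in the WT-labelled library was 306 CPM in cardiomyocyte-like cells and 69.9 CPM in all other cells.

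After thinning, Actn2 had a UMI in 59.4% of cardiomyocyte-like cells of the KO-labelled library and 34.5% of those of the WT-labelled library, against 3.40% and 9.52% of B-like cells. Xirp2 had 36.4% and 20.8%, against 2.13% and 3.57%. Cryab had 29.2% and 18.9%, against 8.09% and 11.9%, and Flnc 12.98% and 4.35%, against 0.851% and 5.95%. In the WT-labelled library the shares of Cryab and Flnc overlap those of B-like cells within counting error. Unthinned, the shares in cardiomyocyte-like cells were 80.5% and 53.7% for Actn2, 62.2% and 35.3% for Xirp2, 49.0% and 30.9% for Cryab, and 32.0% and 8.99% for Flnc. At 500 UMIs, 3 or more of the 10 genes were seen in 48.1% of cells (44.7 to 51.5) of the KO-labelled library and 13.5% (12.6 to 14.5) of the WT-labelled library. None of the 10 was seen in 6.55% and 27.8%.

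Whether the genes were found in the same cells was read within clusters, since the clusters differ in level. In cluster 9 of the KO-labelled library, Xirp2 was seen in 45.9% (39.5 to 52.4) of the 244 cells with an Ankrd1 UMI and in 25.8% (15.8 to 38.0) of the 66 without. In cluster 9 of the WT-labelled library it was seen in 40.8% (33.9 to 47.9) of 201 and 27.3% (23.5 to 31.3) of 524 cells. Csrp3 was seen in 56.6% of cells with and 60.6% of cells without an Ankrd1 UMI in cluster 9 of the KO-labelled library. In cluster 14 of that library, Actn2 was at 67.3% of cells with and 67.5% of cells without, and Xirp2 at 36.5% and 39.0%. In cluster 2 of the KO-labelled library Xirp2 was at 25.8% and 15.4%, with overlapping intervals. In the WT-labelled library it was at 19.4% and 17.8% in cluster 2 and at 19.35% and 20.3% in cluster 6. These shares are descriptions of cells of 1 library each, at 500 UMIs per cell.

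In the KO-labelled library 9 of the 10 genes had their highest level in cardiomyocyte-like cells, and Fhl1 was the exception. In the WT-labelled library Xirp1 was a further exception, at 102 CPM from 5 UMIs in the 55 smooth muscle-like cells. Single-cell libraries can carry free RNA, so each level was set against the level that free cardiomyocyte RNA would give. That level was scaled from Myh6, Tnnt2, Ttn and Ryr2 and taken with the profile of all cardiomyocyte-like cells or, added after the values were seen, of cluster 9 alone. Summed, these 4 genes were at 871 to 3489 CPM across the other classes of the KO-labelled library and at 4125 to 9491 CPM across those of the WT-labelled library. Actn2 had a median of 62.3 CPM over 14 other classes and clusters of the KO-labelled library, 1.03 times the level from all cardiomyocyte-like cells, and of 170 CPM over 10 of the WT-labelled library, 1.23 times that level. Ankrd1 had a median of 158 CPM and 70.6 CPM, 2.08 and 2.002 times the level from all cardiomyocyte-like cells and 0.549 and 0.451 times that from cluster 9. Such levels were not told apart from free RNA.

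**Figure D4:**
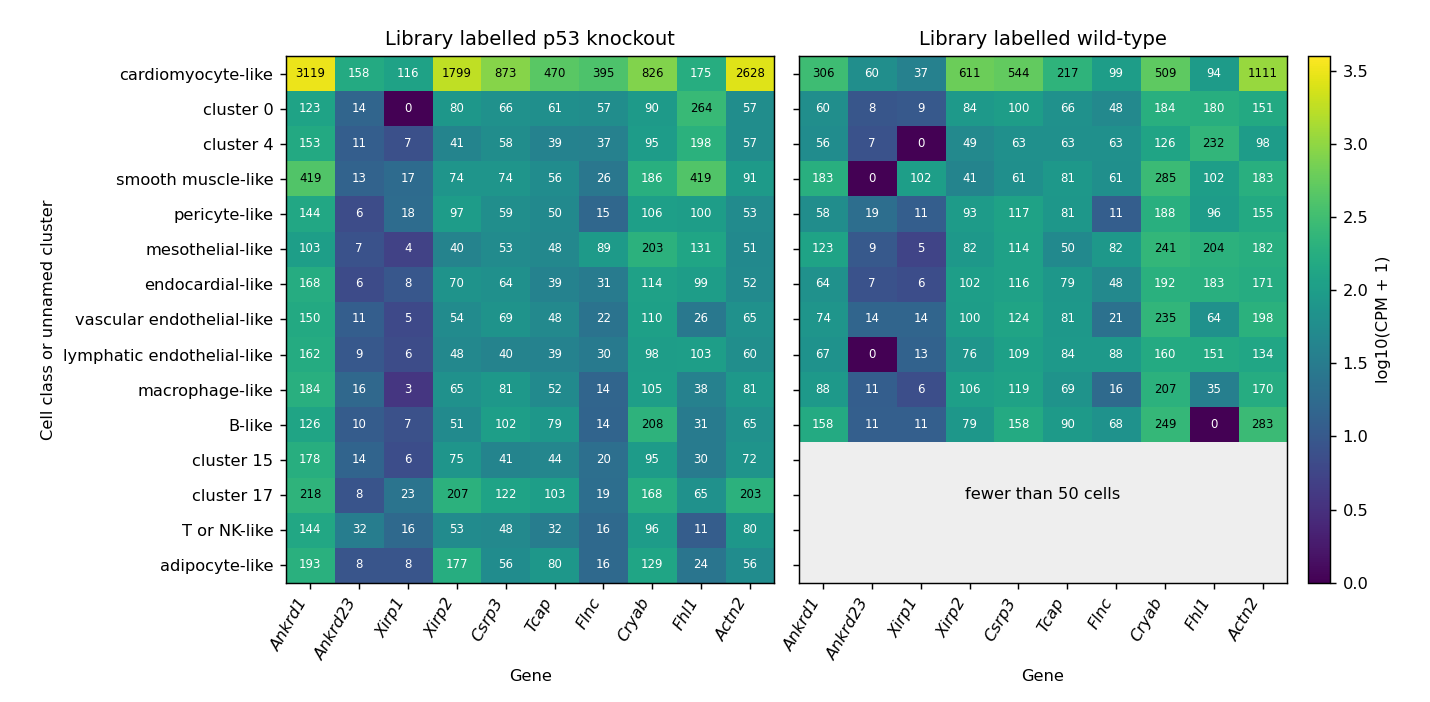
Levels of the 10 genes in each class or unnamed cluster with at least 50 cells, with the KO-labelled library in the left panel and the WT-labelled library in the right; colours show log10(CPM + 1) and the printed numbers are CPM. Cardiomyocyte-like cells have the highest value for 9 of the 10 genes in the left panel and for all but Fhl1 and Xirp1 in the right, and Fhl1 is at 175 and 93.95 CPM in them and up to 419 and 231.5 CPM in other classes.

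Fhl1 was not restricted to cardiomyocyte-like cells, which held 18.5% of its UMIs in the KO-labelled library and 30.4% in the WT-labelled library. Its highest level was 419 CPM (340 to 512) in smooth muscle-like cells of the KO-labelled library, against 102 CPM (33.0 to 237.5) in the 55 such cells of the WT-labelled library. Clusters 0 and 4, in which 7 and 10 of the 10 fibroblast markers were at least 2-fold above the remaining cells, followed in the KO-labelled library. Cluster 4, whose leading genes include Postn and Cilp, had 198 CPM (184 to 212) in 1854 cells of the KO-labelled library and 231.5 CPM (159 to 325) in 106 cells of the WT-labelled library, a difference within counting error. Cluster 0 had 264 CPM (199.5 to 343) in 154 cells and 180.5 CPM (166 to 196) in 3046. Endocardial-like cells had 98.7 CPM (89.2 to 109) and 183 CPM (164 to 204), and vascular endothelial-like cells 26.5 CPM (21.2 to 32.7) and 64.2 CPM (54.6 to 75.1). In cardiomyocyte-like cells Fhl1 was higher in the KO-labelled library, whereas in endocardial-like and vascular endothelial-like cells it was lower, and in lymphatic endothelial-like cells the interval held 0 (-0.57, -1.16 to 0.068). The endocardial-like and vascular endothelial-like classes too held different clusters in each library: cluster 7 had 1325 and 16 endocardial-like cells and cluster 3 had 367 and 1658, while cluster 1 had 261 and 2464 vascular endothelial-like cells and clusters 8 and 11 had 1039 and 177, and 628 and 111. Over all kept cells it was at 115 and 116 CPM, with a log2 ratio of -0.0034 (-0.093 to 0.087). Fhl1 is X-linked, and the sexes of the libraries differ by Xist and Y-linked genes, so sex and genotype label cannot be told apart for it either.

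Beside Fhl1, filamin C and alpha-B-crystallin had levels with a lower bound above both free RNA yardsticks, and above the median of the other classes, in a few classes of the KO-labelled library. Flnc was at 89.2 CPM (71.6 to 109.9) in mesothelial-like cells, 56.6 CPM (29.3 to 98.9) in cluster 0, 37.1 CPM (31.4 to 43.6) in cluster 4 and 30.6 CPM (25.4 to 36.5) in endocardial-like cells. In the WT-labelled library the same classes had 81.7, 48.4, 63.1 and 48.0 CPM. Cryab was at 203 CPM (176 to 233) in mesothelial-like cells and 208 CPM (159 to 268) in B-like cells of the KO-labelled library, and 241 and 249 CPM in those of the WT-labelled library. For Cryab the share of B-like cells with a UMI in the KO-labelled library is therefore no plain background. In the WT-labelled library the B-like level of Cryab was 2.54 times the level from all cardiomyocyte-like cells. No class of the WT-labelled library passed the same comparison for Flnc or Cryab. Of the remaining genes, Ankrd23 in T or NK-like cells of the KO-labelled library (32.05 CPM from 6 UMIs) and Xirp1 in smooth muscle-like cells of the WT-labelled library passed it.

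Counted by class, between 0 and 2 of the 10 genes were at least 2-fold higher outside cardiomyocyte-like cells, and between 0 and 4 at least 2-fold lower. Many of these counts are near the share of all genes given beside them, and they are no result about the 10. In vascular endothelial-like cells 1 of 10 was higher (Ankrd1) and 4 were lower, beside 6.21% and 12.4% of all genes counted. In endocardial-like cells 1 of 10 was higher (Ankrd1) and 2 lower, beside 6.29% and 11.3%. Macrophage-like cells gave 1 of 9 higher (Ankrd1) and 1 lower, beside 7.33% and 11%. Ankrd1 was thus the gene above 2-fold in each of these large classes, and it was not told apart from free RNA in them. Pericyte-like cells had 1 of 7 higher and 1 lower, beside 5.47% and 12.1%, and lymphatic endothelial-like cells 1 of 8 and 4, beside 8.76% and 9.36%. Cluster 0 had 1 of 10 higher and 2 lower, beside 7.66% and 16.5%, and cluster 4 had 1 of 10 and 0, beside 12.8% and 15.6%. These counts rest on few UMIs for most genes. Smooth muscle-like cells had 2 of 5 higher (Ankrd1 and Fhl1) and 1 lower, beside 18.3% and 14%. Mesothelial-like cells had 0 of 8 and 3, beside 12.5% and 13.5%, and B-like cells 0 of 6 and 1, beside 15.1% and 13.2%.

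Summed over all kept cells, the picture by library differed from that within cardiomyocyte-like cells. Ankrd1 remained higher, at 521 CPM in the KO-labelled library and 158 CPM in the WT-labelled library, a log2 ratio of 1.72 (1.66 to 1.78), and Flnc had 76.0 and 60.5 CPM (0.33, 0.21 to 0.45). Of the 10, 1 was at least 2-fold higher and 0 at least 2-fold lower. Of all 18696 genes counted, 12% were at least 2-fold higher and 10.9% at least 2-fold lower. Csrp3 had 162 and 274 CPM, with a log2 ratio of -0.76 (-0.82 to -0.69), Cryab 202 and 317 CPM (-0.65, -0.71 to -0.59) and Actn2 375 and 521 CPM (-0.47, -0.52 to -0.43). In a bulk view these genes would thus be lower, beside a 9.30% and 32.4% share of cardiomyocyte-like cells. In such sums fewer cells of a type and less RNA per cell cannot be told apart.

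The wider Z-disc and force-transmission genes were described with 86 partner genes in 7 lists, of which 84 had enough UMIs. Of the 84, 12 were at least 2-fold higher in cardiomyocyte-like cells of the KO-labelled library and 2 at least 2-fold lower. Among all 13656 genes counted in these cells, 4.4% were at least 2-fold higher and 15.5% at least 2-fold lower. Those shares stand beside the counts of each list below. The Z-disc scaffold list held 6 of the 12 among its 25 genes, with a median log2 ratio of 0.65 beside -0.25 for all genes. Its most positive gene was Synpo2l, which encodes an actin-associated Z-disc protein of heart muscle, at 210 CPM in the KO-labelled library and 40.9 CPM in the WT-labelled library, a log2 ratio of 2.36 (2.14 to 2.59). Ttn, which encodes titin, was at 16820 and 21450 CPM (-0.35). Ttn therefore lay below the WT-labelled level, near the median of all genes and unlike the 10 genes over the whole class.

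Among LIM proteins, 0 of 7 were at least 2-fold higher or lower, with a median of 0.45. Fhl2, which binds titin and is abundant in heart, had 5159 CPM in the KO-labelled library and 2768 CPM in the WT-labelled library (0.90), and Lmcd1 39.0 and 45.9 CPM (-0.23). Among the small heat shock and BAG3 chaperones, the partners of Cryab, 1 of 11 was at least 2-fold higher, with a median of 0.41. That gene was Hspb7, a heart-enriched small heat shock protein that binds filamin C, at 562 and 251 CPM (1.16, 1.06 to 1.27), while Dnajb6 had 131 and 140 CPM (-0.095, -0.29 to 0.096).

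Costamere and intercalated disc genes had a median of 0.082, with 2 of 22 at least 2-fold higher and 1 at least 2-fold lower. Nrap, which anchors forming myofibrils at the membrane, had 909 CPM in the KO-labelled library and 409.7 CPM in the WT-labelled library (1.15), and Dmd, which encodes dystrophin, 8897 and 4425 CPM (1.01). Lims2, part of the integrin-linked kinase complex, had 31.9 and 66.8 CPM (-1.06). M-band genes and titin-binding ligases had a median of -0.020 and none past 2-fold: the myomesin gene Myom1 had 2364 and 1807 CPM (0.39), the ubiquitin ligase Trim63 569 and 334 CPM (0.77), and Fbxo32 269 and 457.5 CPM (-0.77). The mechanical signalling list had a median of 0.19, with 3 of 12 at least 2-fold higher and 1 lower. Ccn2, a target of YAP and TEAD, had 518 and 72.1 CPM (2.84, 2.69 to 3.005), Myocd, the serum response factor cofactor myocardin, 1539 and 737 CPM (1.06), and the kinase gene Prkd1 43.0 and 111 CPM (-1.37).

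Across 26 sums, each of 1 class or cluster in 1 library, levels were correlated between genes as log2(CPM + 10), as a description over points that share libraries, depth and free RNA. Among the 10, Csrp3 and Actn2 were most alike (Pearson r = 0.94), followed by Csrp3 and Tcap (r = 0.92), and the pairs least alike all held Fhl1 (lowest r = -0.040, with Ankrd23). Among 7806 genes, the ones most like Actn2 were Tnnc1 (r = 0.97) and Actc1 (r = 0.96), and those most like Tcap were Mybpc3 (r = 0.94) and Ryr2 (r = 0.91). Cryab was most like Hspb7 (r = 0.92) and Eef1a2 (r = 0.91), and Csrp3 most like Slc38a3 (r = 0.93) and Mybpc3 (r = 0.93). Ankrd1 was most like Sln (r = 0.85) and Nmrk2 (r = 0.84), and Xirp1 most like Ppp1r3c (r = 0.87) and Des (r = 0.86). Among the genes close to Xirp2 was Mypn (r = 0.92), and among those close to Ankrd23 was Trim72 (r = 0.79). Flnc was most like Mdh2 (r = 0.78) and Uqcrh (r = 0.77), and Fhl1 most like Bace1 and Tgfb2 (both r = 0.84).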

How the data were processed

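The deposited files hold UMI counts per gene and barcode, which the authors made with Cell Ranger and Seurat on build mm10, per the submitters' processing notes. The labels' protocols name a 10x 3' kit, but the barcodes are written as 3 blocks of 9 bases, and whether cells or nuclei were loaded is not given in the sources used here. Strand use in counting is not given either, so counts of Ankrd23 (Gm42417), Xirp1 (Cx3cr1), Xirp2 (Gm13601), Cryab (Hspb2) and Fhl1 (Gm23258), which overlap the gene in brackets in GENCODE vM21, are uncertain to that extent. The 10 members and all lists were chosen with earlier results of these data known.

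Cells with at least 200 genes and at most 50% mitochondrial UMIs were kept. Scrublet (scanpy 1.11.5) marked 0 barcodes, so the 8% of cells with the highest scores were removed, 808 from the KO-labelled and 1284 from the WT-labelled library, which is a set share and no evidence that they were doublets. Counts scaled to 10000 per cell were clustered without integration on variable genes other than the members, with 30 principal components, 15 neighbours and Leiden at resolution 1 (leidenalg 0.10.2). A cluster was called "X-like" where at least 3 markers of its class were 2-fold or more above the remaining cells. Its 10 leading genes also had to favour no other class, and other clusters keep their number. Cluster 4 met this rule for fibroblasts and cluster 15 for neutrophils, but both are called by number here.

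Sums of UMIs per class and library were divided by the nuclear-encoded total to give CPM. Log2 ratios (KO-labelled over WT-labelled) were taken after adding 0.5 UMI to both sums. Intervals are exact: Poisson for levels, conditional binomial for ratios and Clopper-Pearson for shares. Genes with at least 20 UMIs over both libraries were counted. The rule for named genes took all 10 members, of each partner list the gene with the most UMIs and the most positive and most negative ratio where a library had at least 100 UMIs, and for each member the 2 genes of most similar level; a few results under this rule are not reported here. Tests on simulated counts preceded use. The alternatives were another scaling, depth matching, thinning, other cell filters, clustering resolutions and cell subsets.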

Additional observations from a re-analysis of the deposited data

Results flagged for a closer look

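Among the 3 other classes with at least 500 cells in each library, 8 of the 10 genes had a log2 ratio of the opposite sign to that in cardiomyocyte-like cells, beyond counting error in both. Each of the 8 was higher in cardiomyocyte-like cells of the KO-labelled library and lower in at least 1 of these 3 classes; Csrp3, Tcap and Cryab were not higher in cardiomyocyte-like cells summed without cluster 9. Fhl1 in macrophage-like cells (0.12), Xirp1 in endocardial-like cells (0.45) and Flnc in vascular endothelial-like cells (0.10) had positive ratios with intervals that hold 0. The endocardial-like and vascular endothelial-like cells of the libraries lie mostly in different clusters, and the part of this in the ratios was not tested. The difference between classes was not tested. No share over all genes is given beside the 8, so the count is no result about the 10. Actn2 had -1.72 in endocardial-like, -1.06 in macrophage-like and -1.60 in vascular endothelial-like cells. Cryab had -0.76, -0.98 and -1.09, Csrp3 -0.85, -0.55 and -0.85, and Xirp2 -0.55, -0.69 and -0.89 in the same order. Tcap had -1.01 in endocardial-like and -0.76 in vascular endothelial-like cells, and Fhl1 -0.89 and -1.27. Flnc had -0.65 in endocardial-like cells and Xirp1 -1.37 in vascular endothelial-like cells. Myh6, Tnnt2, Ttn and Ryr2, summed, were at 914, 1247 and 992 CPM in these classes of the KO-labelled library and at 5910, 5805 and 6609 CPM in those of the WT-labelled library. Of these member levels, only Fhl1 in endocardial-like cells of both libraries and Flnc in those of the KO-labelled library passed the comparison used above. That comparison asks for a lower bound above both free RNA yardsticks and above the median of the other classes. A level that failed it may still lie above free RNA. Fhl1 in vascular endothelial-like cells was 6.95 and 5.11 times the level from all cardiomyocyte-like cells in the KO-labelled and the WT-labelled library. The part of free RNA in these ratios was not tested. Ankrd1 was higher in all 3, at 1.38, 1.07 and 1.02.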

How the results depend on the processing

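Over 12 alternatives for each of the 10 genes in cardiomyocyte-like cells, 83 of 120 values stayed within the counting interval, 34 moved past it in the same direction and 3 turned round. The turned values were sums without the cluster rich in mitochondrial RNA: -0.082 for Csrp3, -0.14 for Tcap and -0.65 for Cryab. The mix of the remaining clusters differs between the libraries, and the cause was not tested. Ankrd1 ranged from 2.99 to 3.70 and Flnc from 1.45 to 2.25. Csrp3 reached up to 1.48, Tcap up to 2.06 and Cryab up to 1.52, and with at most 20% mitochondrial UMIs they were at 0.28, 0.73 and 0.20. The count of partner genes at least 2-fold higher was 12, and 19 both with median-of-ratios scaling and for cells of 1000 to 2000 UMIs, a range chosen after seeing the data, as was leaving out shared barcodes. Counts of members at least 2-fold higher in other classes were small and moved. With free RNA left out they were 2 against 1 in endocardial-like, 0 against 1 in macrophage-like and 2 against 1 in pericyte-like cells. With at least 100 UMIs the pericyte-like count was 0. Smooth muscle-like cells gave 1 against 2 at resolution 2 and when thinned, and vascular endothelial-like cells 0 against 1 with every cell kept and at resolution 2. No paired analysis was possible because each group has 1 library. Depth limits genes of few UMIs, such as Xirp1 and Ankrd23 within clusters.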
